A study of Homo sapiens with 6 samples.

Results

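Amino acid transporters are membrane proteins that carry amino acids and related small molecules into, out of and within cells. The 32 genes described here were taken as a list of symbols, out of 34893 genes with a symbol in the files. They cover sodium-coupled carriers of glutamate and neutral amino acids (the SLC1 and SLC38 families), sodium- and chloride-coupled carriers (SLC6), exchangers and cationic carriers (SLC7 with the heavy chain SLC3A2), facilitated carriers (SLC43 and SLC16A10) and proton-coupled carriers of lysosomes and other membranes (SLC15 and SLC36). Of the 32 genes, 29 passed the filter on low counts and were tested.

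The cells were THP-1, an established human acute monocytic leukaemia line that grows in suspension. Poly(A) RNA was sequenced from 3 cultures of THP-1 supplied by the American Type Culture Collection (ATCC) and 3 supplied by the German collection DSMZ. Both stocks were untreated, were grown side by side in RPMI medium with 20% fetal bovine serum at 37 °C and 5% CO2, and were collected in logarithmic growth. The labels state that each replicate expansion was made independently, but each source is represented by 1 supplied stock, so a property of the repository and a property of that stock cannot be told apart.

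Several of these carriers work as a network. Exchangers such as SLC7A5 and SLC1A5 let 1 amino acid in against another going out, while sodium-coupled carriers such as SLC38A1 and SLC38A2 load the cell with the small neutral amino acids that are exchanged. SLC3A2 is a single-pass glycoprotein that takes a set of SLC7 light chains to the cell surface and holds each by a disulfide bond. On the lysosome, SLC38A9 signals arginine to the kinase complex mTORC1, and in many cells the transcription factor ATF4 raises transporter genes when amino acids run short.

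Libraries held 23413428 to 37119721 estimated counts, and ATCC replicate 2 deviated from its group along the GC content of transcripts, as given below. All 11 monocyte markers passed the filter. Against 49.8% of all tested genes called, 3 of these markers were called as higher in DSMZ and 5 as lower there. Their summed level was 908 to 1324 CPM (counts-per-million values, scaled to each library) in ATCC and 1151 to 1274 in DSMZ; CD14 was at 1.32 and 0.334 CPM. T cell markers summed to at most 0.571 CPM in any library with CD3E at 0, and epithelial and fibroblast markers to at most 1.03. B cell markers summed to 6.62 to 7.64 CPM in ATCC and 18.6 to 22.2 in DSMZ, with MS4A1 at 0 in all 6 libraries. Their part in the transporter values was not tested.

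Fold changes are log2 ratios of DSMZ over ATCC, given with their standard error (SE), and positive values are higher in DSMZ. CPM values compare 1 gene between libraries, and TPM values (transcripts-per-million, scaled by transcript length) compare different genes. Means are given ± SD over n = 3 libraries per source. A gene is called higher when edgeR's quasi-likelihood test, adjusted by Benjamini-Hochberg over all 14569 tested genes, gave an adjusted p under 0.05.

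Of the 29 tested transporters, 5 were higher in DSMZ and 10 were higher in ATCC. That is 51.7% of the members, and 49.8% of all tested genes were called, 24.1% as higher in DSMZ and 25.7% as higher in ATCC. The share of transporters that differed was thus near the share among all genes. Differences of at least 2-fold were called in 3 members higher in DSMZ (SLC43A2, SLC38A2 and SLC6A8) and 5 higher in ATCC (SLC7A7, SLC38A5, SLC1A3, SLC6A9 and SLC1A4), where 9.9% and 11.4% of all tested genes reached that size. The median log2 fold change was -0.08 over the tested members and 0.01 over all tested genes, and the median absolute value was 0.39 over the members and 0.47 over all genes. The 3 libraries of a source did not overlap those of the other in 19 members, 7 with DSMZ higher and 12 with ATCC higher, which is 65.5% of the members. Among all tested genes 62.4% did not overlap, 31.6% with DSMZ higher and 30.7% with ATCC higher. In bulk RNA such as this, fewer cells expressing a gene and less of its RNA per cell cannot be told apart.

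**Figure D1:**
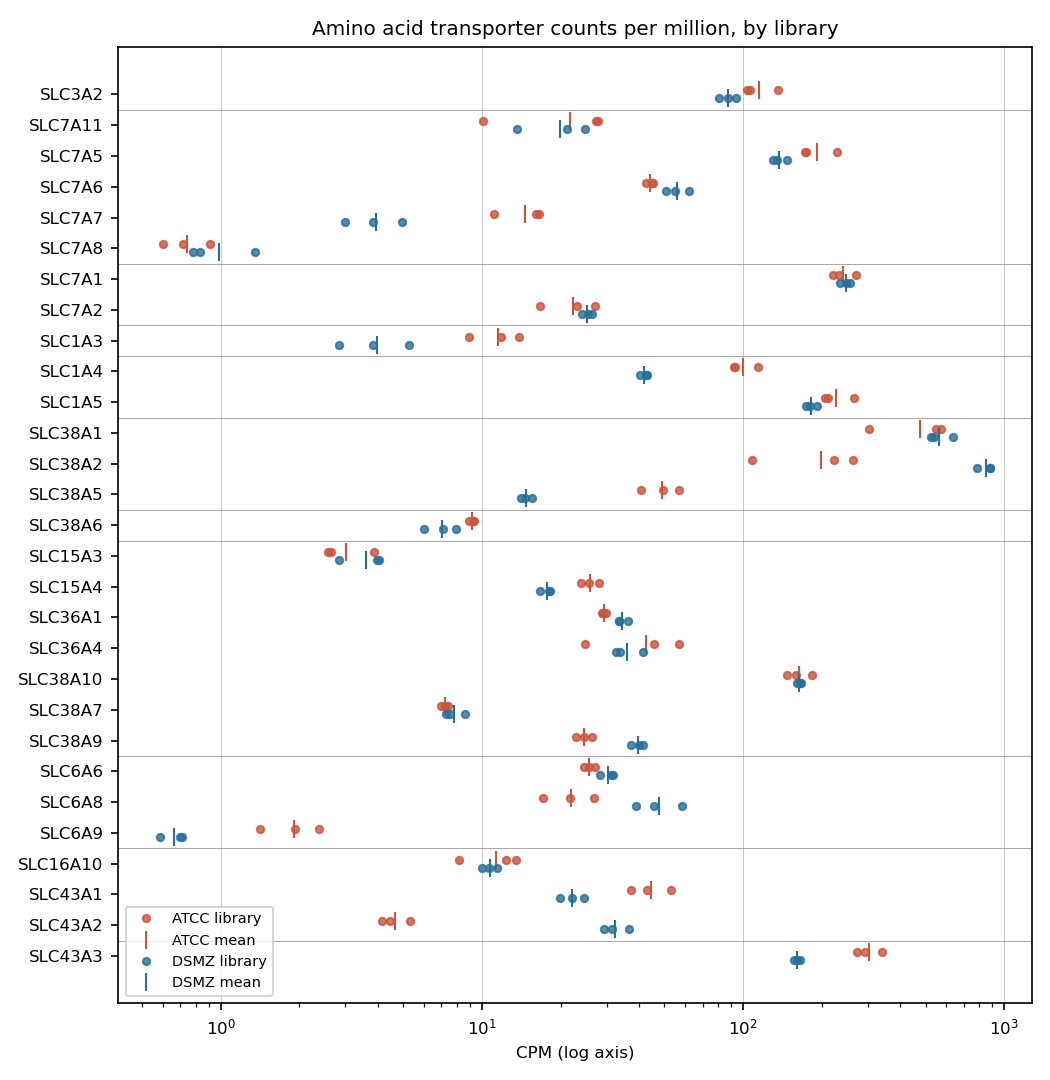
CPM of each tested transporter on a log axis, with 1 point per library and a bar at the mean of each source, grouped by transport role. The points of the sources are well apart for SLC43A2, SLC38A2, SLC7A7 and SLC38A5 and lie close together for SLC7A1 and SLC38A10. For SLC7A11 they are widely spread and interleaved.

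The most abundant member differed between the sources. By TPM, SLC43A3, which is known to carry purine bases rather than amino acids, ranked first of the 32 in ATCC, with 21.4% of the members' summed TPM, and it ranked at place 2 in DSMZ with 11%. SLC38A2 ranked at place 5 in ATCC with 7.47% and first in DSMZ with 28.9%. The same 5 genes, SLC43A3, SLC3A2, SLC1A5, SLC38A1 and SLC38A2, held the top places in both sources when all transcripts were counted. Together they made up 60.8% of the members' TPM in ATCC and 66.6% in DSMZ. Without transcripts of non-coding biotype this shared top 5 did not hold. In ATCC, SLC38A2 was then at 47.1 ± 19.1 TPM, on average below SLC7A5 (54.3 ± 7.23) and SLC38A10 (51.7 ± 5.06). In DSMZ, SLC3A2 at 48.2 ± 8.87 was on average below SLC38A10 at 51.3 ± 2.61. SLC43A3 in ATCC and SLC38A2 in DSMZ still ranked first. Neighbours in the order need not differ: in ATCC, SLC38A1 at 88.7 ± 26.6 TPM and SLC38A2 at 83.3 ± 37.1 TPM lay within each other's spread.

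The summed TPM of the members was 1119, 1124 and 1107 in ATCC replicates 1 to 3 and 1128, 1221 and 1183 in the DSMZ replicates. The sources did not overlap, at 1116 ± 8.39 and 1177 ± 46.7, and the exact two-sided permutation p of 0.1 is the smallest that 3 against 3 libraries can give. Leaving out transcripts annotated as retained introns, processed transcripts or targets of nonsense-mediated decay turned the direction, to 905 ± 13.2 in ATCC and 871 ± 45.5 in DSMZ (exact permutation p = 0.4). The transcripts kept carried 45% of SLC3A2's TPM and 58.1% of SLC38A2's in ATCC.

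The first group of carriers is SLC3A2 and the light chains that bind it, which as a set exchange large neutral, cationic and acidic amino acids. SLC3A2, its light chain SLC7A5 and the light chain SLC7A7 were higher in ATCC, SLC7A6 was higher in DSMZ, and SLC7A8 and SLC7A11 did not pass the test.

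SLC3A2 (ENSG00000168003, chromosome 11, 62856102 to 62888875, GRCh38) encodes the shared heavy chain, also known as CD98 or 4F2. It was at 106, 137 and 103 CPM in ATCC replicates 1 to 3 and at 80.8, 93.6 and 87.3 CPM in the DSMZ replicates. All 3 ATCC libraries lay above all 3 DSMZ libraries, with the highest value in ATCC replicate 2. The log2 fold change was -0.40 (SE 0.13, adjusted p = 0.0373). This call did not hold when any 1 DSMZ library was left out, at adjusted p of 0.15, 0.0815 and 0.111 without replicates 1, 2 and 3. Without ATCC replicate 2 it held at -0.25.

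SLC7A5 (ENSG00000103257, chromosome 16, 87830023 to 87869488) encodes LAT1, which brings in leucine and other large neutral amino acids in exchange for glutamine. Its levels were 172, 229 and 174 CPM in ATCC and 129.7, 147 and 135 CPM in DSMZ, again without overlap and again highest in ATCC replicate 2. The log2 fold change was -0.48 (SE 0.13, adjusted p = 0.0177). The call was lost without DSMZ replicate 1 (adjusted p = 0.0851) and without DSMZ replicate 3 (adjusted p = 0.0688), and was held without ATCC replicate 2, at -0.33. Its processed copies SLC7A5P1 and SLC7A5P2 had at most 0.303 CPM in any library.

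SLC7A7 (ENSG00000155465, chromosome 14, 22773222 to 22829820) encodes y+LAT1, which exports cationic amino acids such as arginine in exchange for neutral ones and is known from macrophages and epithelia. It was at 16.6, 16.1 and 11.1 CPM in ATCC and 4.95, 3.82 and 3.00 CPM in DSMZ. The lowest ATCC library was more than the highest DSMZ library by a wide margin. SLC7A7 thus had a log2 fold change of -1.91 (SE 0.23, adjusted p = 0.000422), a 3.75-fold difference and the largest among the members higher in ATCC. It was called in all 18 other settings of the test.

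SLC7A6, which encodes y+LAT2 with the same type of exchange as SLC7A7, moved the other way. Its levels were 45.1, 44.8 and 42.4 CPM in ATCC and 61.9, 55.0 and 50.5 CPM in DSMZ, without overlap. The log2 fold change was 0.34 (SE 0.11, adjusted p = 0.0331), and the call was lost in 10 of the 18 other settings, among them without ATCC replicate 1 (adjusted p = 0.0754), ATCC replicate 3 (0.159), DSMZ replicate 1 (0.185) or DSMZ replicate 2 (0.126). SLC7A6OS overlaps it on the opposite strand at 63.0% of its mean level, and the labels do not say whether the quantification used strand.

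SLC7A11 (ENSG00000151012, chromosome 4, 138164097 to 138242349) encodes xCT, which takes up cystine for glutathione synthesis and releases glutamate. It was at 27.4, 10.1 and 27.7 CPM in ATCC and 13.6, 21.2 and 24.8 CPM in DSMZ. ATCC replicate 2 was the lowest of all 6 libraries and ATCC replicates 1 and 3 were the highest. The log2 fold change was -0.13 (SE 0.39, adjusted p = 0.803), and without ATCC replicate 2 it was -0.45 (SE 0.20, adjusted p = 0.075). SLC7A8, encoding the exchanger LAT2, was low at 0.741 ± 0.156 CPM in ATCC and 0.986 ± 0.313 in DSMZ, resting on 61 and 83 counts. Its libraries overlapped, with an adjusted p of 0.311.

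Counted per length, SLC7A5 made up 61.3 ± 2.48% of the 5 light chains' TPM in ATCC and 56.4 ± 4.26% in DSMZ. SLC7A6 held 22.2 ± 1.36% and 34.1 ± 4.50%, and SLC7A7 held 12.4 ± 0.0932% and 5.03 ± 0.371%. On average SLC7A7 was a smaller part and SLC7A6 a larger part of the light chain RNA in DSMZ, and these shares were not tested. The summed light chain TPM per SLC3A2 TPM was 0.626, 0.593 and 0.581 in ATCC and 0.695, 0.564 and 0.60 in DSMZ. The sources overlapped, at 0.60 ± 0.0234 and 0.620 ± 0.0675, and the difference of 0.0193 had an exact two-sided permutation p of 0.8. Without DSMZ replicate 1, the library with the highest ratio, the difference was -0.0183. Without transcripts of non-coding biotype, the ratio was 1.18 ± 0.0778 in ATCC and 1.32 ± 0.178 in DSMZ. The sources overlapped there too (exact permutation p = 0.3). Whether light chain RNA lay below or above that of SLC3A2 thus depended on which transcripts were counted.

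**Figure D2:**
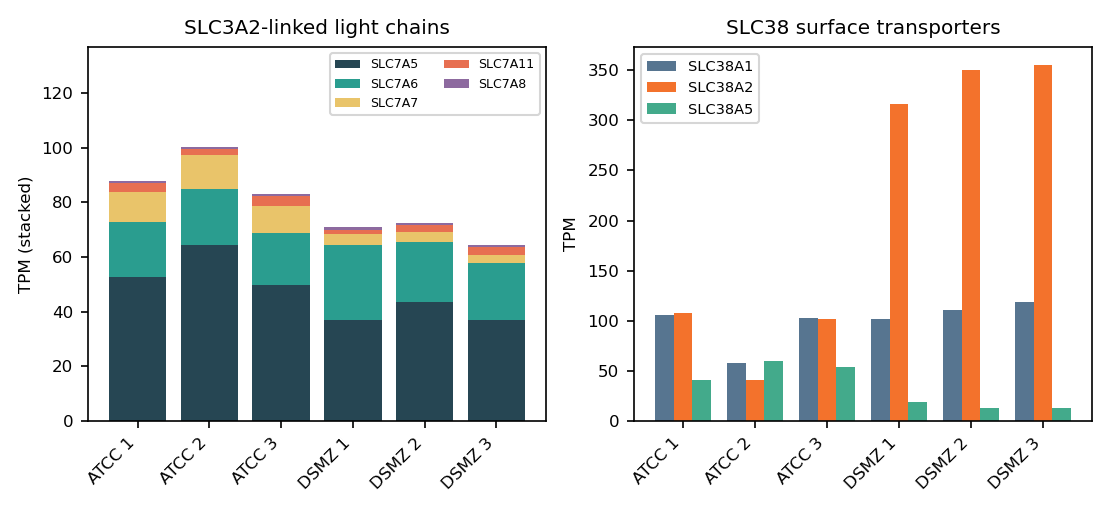
TPM in each of the 6 libraries, left stacked for the 5 light chains of SLC3A2 and right side by side for SLC38A1, SLC38A2 and SLC38A5. The SLC7A7 segment is thinner in every DSMZ library, and the SLC38A2 bars are the tallest in all 3 DSMZ libraries while the SLC38A5 bars are the shortest there.

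The cationic carriers outside that complex did not pass the test. SLC7A1 (ENSG00000139514, chromosome 13, 29509410 to 29595688), or CAT1, is the main arginine and lysine importer of many cells. It was at 222, 270.1 and 233 CPM in ATCC and 236, 258 and 249 CPM in DSMZ. The sources overlapped throughout, with a log2 fold change of 0.03 (SE 0.10, adjusted p = 0.794), and the sign turned with upper quartile normalization (-0.05). SLC7A2, or CAT2, which serves arginine uptake in macrophages, was at 22.3 ± 5.19 and 25.3 ± 1.12 CPM (adjusted p = 0.406). SLC7A3, the third cationic carrier, had 2 counts over the ATCC libraries and 9 over the DSMZ libraries, which is 4.27 times the ATCC level after scaling (95% interval from counting error 0.883 to 40.6), and was not tested.

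The SLC1 family holds sodium-coupled glutamate carriers and neutral amino acid exchangers. Of the 3 SLC1 genes among the 29 tested transporters, SLC1A3 and SLC1A4 were called higher in ATCC, and SLC1A5 fell just short.

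SLC1A4 (ENSG00000115902, chromosome 2, 64988477 to 65023865), or ASCT1, exchanges alanine, serine, cysteine and threonine. It was at 92.8, 114 and 92.5 CPM in ATCC and 42.9, 42.5 and 40.4 CPM in DSMZ. The DSMZ libraries lay close together and far below the ATCC libraries, at a log2 fold change of -1.25 (SE 0.12, adjusted p = 0.000131).

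SLC1A5 (ENSG00000105281, chromosome 19, 46774883 to 46788594), or ASCT2, is a high-capacity glutamine exchanger of dividing cells. Its levels were 211, 266 and 207 CPM in ATCC and 174, 192 and 180.2 CPM in DSMZ. The libraries did not overlap, but the log2 fold change of -0.32 (SE 0.12) had an adjusted p of 0.0534. It passed without ATCC replicate 1 (-0.41, adjusted p = 0.0404) and without ATCC replicate 2, where the difference was smaller and the error smaller still (-0.19, SE 0.06, adjusted p = 0.0204).

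SLC1A3 (ENSG00000079215, chromosome 5, 36606355 to 36688334), or EAAT1, takes up glutamate and aspartate. It was at 13.9, 8.90 and 11.8 CPM in ATCC and 5.25, 3.82 and 2.83 CPM in DSMZ. No DSMZ library reached the lowest ATCC library. Its log2 fold change was -1.56 (SE 0.26, adjusted p = 0.00186). The call was lost on length-scaled values, at -0.77 with limma on log2(TPM + 0.5) (adjusted p = 0.141) and at -0.86 with an effective length offset (adjusted p = 0.0956). The coding transcript SLC1A3-201 made up 51.4 ± 18.6% of the gene's TPM in ATCC and 9.21 ± 8.79% in DSMZ, and its part in the lost call was not tested. SLC1A2, the glutamate carrier of astrocytes, had 14 counts over the ATCC libraries and 11 over the DSMZ libraries and was not tested.

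ATF4 binds DNA at a composite element with the core TGATGNAA, known as the amino acid response element. It was searched on both strands in the 250 bases before each RefSeq start (GRCh38.p14) that the sequence table gives for 24 of the 32 members. No start was available for SLC7A11, SLC43A3, SLC1A2, SLC6A6, SLC6A12, SLC7A2, SLC7A3 and SLC15A3, so these genes were not searched. Of 45 starts, 2 (4.44%) held a match, against 3.14% of 35116 starts of all genes and 1.75% of 15679 starts of tested genes. Both lie in the SLC1 family and are shown for that reason, on the gene's strand 5′ to 3′ with the matched core in capitals. The first begins 220 bases before a start of SLC1A3 that lies upstream of the GENCODE gene (chr5:36596357-36596386, plus strand), and the second 97 bases before an internal start of SLC1A5 (chr19:46784893-46784922, minus strand).
SLC1A3: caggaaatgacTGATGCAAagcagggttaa
SLC1A5: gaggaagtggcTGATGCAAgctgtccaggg
A match describes these letters only and is no measure of binding, and other windows of these genes were not searched.

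The surface SLC38 carriers take up small neutral amino acids and glutamine together with sodium. Their RNAs moved in opposite directions: SLC38A2 was higher in DSMZ, SLC38A5 was higher in ATCC, and SLC38A1 did not pass the test.

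SLC38A2 (ENSG00000134294, chromosome 12, 46358189 to 46372867), or SNAT2, is the system A carrier that cells raise on amino acid shortage and hypertonic stress. It was at 263, 108 and 223 CPM in ATCC and 788, 886 and 887 CPM in DSMZ. All DSMZ libraries were far above all ATCC libraries, and ATCC replicate 2 was the lowest. This gave a log2 fold change of 2.11 (SE 0.30, adjusted p = 0.000891), or 4.31-fold. Without ATCC replicate 2 it was 1.82 and with a correction for GC content 1.91, and it was called in all 18 other settings. Per length, its level was 83.3 ± 37.1 TPM in ATCC and 341 ± 21.4 in DSMZ, where the transcripts of coding biotype made up 58.1% and 55.8%.

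SLC38A1 (SNAT1), the other system A carrier, lies 88.2 kb from SLC38A2 on chromosome 12. Its levels were 573, 304 and 547 CPM in ATCC and 523, 538 and 635 CPM in DSMZ. The sources overlapped, the low library again being ATCC replicate 2, with a log2 fold change of 0.25 (SE 0.23, adjusted p = 0.389).

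SLC38A5 (ENSG00000017483, chromosome X, 48458537 to 48470256), or SNAT5, is a system N carrier that moves glutamine, serine and glycine in either direction. It was at 40.6, 56.7 and 49.4 CPM in ATCC and 15.5, 14.1 and 14.6 CPM in DSMZ. The DSMZ libraries were nearly equal, and all lay below the lowest ATCC library. Its log2 fold change was -1.73 (SE 0.14, adjusted p = 8.16e-05), and it was called in all 18 other settings. Its rank among the 32 members by TPM went from 8 in ATCC to 14 in DSMZ.

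The SLC43 family holds facilitated carriers, which need no ion gradient. SLC43A1 and SLC43A2 carry leucine and other large neutral amino acids, while SLC43A3 is the purine base carrier of the family.

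SLC43A2 (ENSG00000167703, chromosome 17, 1569267 to 1628886), or LAT4, had the largest fold change of all 29 tested members. It was at 4.45, 5.30 and 4.14 CPM in ATCC and 36.7, 31.4 and 29.3 CPM in DSMZ. The lowest DSMZ library was several times the highest ATCC library. SLC43A2 had a log2 fold change of 2.81 (SE 0.15, adjusted p = 1.63e-05), or 7.0-fold, and it stayed between 2.70 and 3.08 in the 18 other settings. The files list 12 copies of its transcripts on alternative sequences, and with transcripts of the primary assembly only the value was 2.95. Its rank by TPM went from 27 of 32 in ATCC to 12 in DSMZ.

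SLC43A1, or LAT3, moved against SLC43A2. It was at 37.1, 52.8 and 43 CPM in ATCC and 19.9, 22.2 and 24.6 CPM in DSMZ, without overlap and with a log2 fold change of -0.99 (SE 0.16, adjusted p = 0.00147). SLC43A3, 57.0 kb from SLC43A1 on chromosome 11, was at 273, 341 and 293 CPM in ATCC and 160.4, 166 and 156 CPM in DSMZ. It also had no overlap, with a log2 fold change of -0.91 (SE 0.10, adjusted p = 0.000326). Between the leucine carriers, SLC43A1 was the higher by TPM in ATCC, at 27.5 ± 4.63 against 2.49 ± 0.0797 for SLC43A2, while in DSMZ SLC43A2 stood at 20.7 ± 2.53 and SLC43A1 at 14 ± 1.95. SLC16A10, or TAT1, which carries aromatic amino acids, was at 11.3 ± 2.81 and 10.7 ± 0.716 CPM (adjusted p = 0.748). Its coding transcript SLC16A10-202 made up 51.6 ± 5.85% of the gene's TPM in ATCC and 70.9 ± 3.49% in DSMZ, without overlap, a shift that was not tested.

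The SLC6 carriers move their substrates with sodium and chloride. SLC6A8 was higher in DSMZ, SLC6A9 was higher in ATCC, and SLC6A6 did not pass.

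SLC6A8 (ENSG00000130821, chromosome X, 153688099 to 153696593) encodes the creatine transporter. It was at 21.7, 26.8 and 17.1 CPM in ATCC and 45.5, 38.9 and 58.2 CPM in DSMZ. All DSMZ libraries were higher, with a log2 fold change of 1.12 (SE 0.21, adjusted p = 0.00312). Its pseudogene copy SLC6A10P was at 0.0244 and 0.105 CPM on average. PNCK overlaps SLC6A8 on the opposite strand at 12% of its level, with 2.62 CPM in ATCC and 5.71 in DSMZ, also higher in DSMZ.

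SLC6A9 (ENSG00000196517, chromosome 1, 43991500 to 44031467) encodes the glycine transporter GlyT1. It was at 1.41, 2.38 and 1.93 CPM in ATCC and 0.694, 0.708 and 0.584 CPM in DSMZ, resting on 157 and 57 counts in all. The sources did not overlap and the log2 fold change was -1.53 (SE 0.26, adjusted p = 0.00211). CCDC24 overlaps it on the opposite strand at 141% of its level, with 1.61 CPM in ATCC and 2.00 in DSMZ. SLC6A6, the taurine transporter, was at 25.8 ± 1.32 and 30.4 ± 1.87 CPM (adjusted p = 0.090, and 0.0138 without ATCC replicate 2), and SLC6A12, the betaine and GABA carrier, had 13 and 10 counts and was not tested.

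Of the carriers of lysosomes and other inner membranes, SLC38A9 and SLC15A4 passed the test, in opposite directions. SLC38A9, the arginine sensor upstream of mTORC1, was at 26.4, 22.9 and 24.6 CPM in ATCC and 41.4, 39.8 and 37.2 CPM in DSMZ. Its libraries did not overlap and the log2 fold change was 0.68 (SE 0.10, adjusted p = 0.0013). SLC15A4, a histidine and peptide carrier needed for signalling by endosomal Toll-like receptors, was at 23.9, 28.0 and 25.7 CPM in ATCC and 16.7, 18.3 and 18.1 CPM in DSMZ. It did not overlap either, with a log2 fold change of -0.55 (SE 0.11, adjusted p = 0.00414).

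The other carriers of this kind, SLC15A3, SLC36A1, SLC36A4, SLC38A7 and SLC38A10, had adjusted p-values from 0.0745 to 0.978. SLC15A3, a relative of SLC15A4, was at 3.03 ± 0.724 and 3.61 ± 0.674 CPM, and TMEM132A overlaps it on the opposite strand at 14.5% of its level. SLC36A1, a lysosomal exporter of small amino acids, was closest at 29.3 ± 0.619 CPM in ATCC and 34.4 ± 1.51 in DSMZ without overlap, and it passed without ATCC replicate 2 (adjusted p = 0.0196). SLC36A4, a carrier of proline and tryptophan, was at 56.6, 24.8 and 45.6 CPM in ATCC and 33.9, 32.7 and 41.3 CPM in DSMZ, so the ATCC libraries lay on both sides of the DSMZ libraries. Without ATCC replicate 2 its log2 fold change was -0.49 (adjusted p = 0.00648), against -0.23 with all libraries. SLC38A10 was at 164 ± 18.5 and 165 ± 3.43 CPM (adjusted p = 0.978). Its transcript SLC38A10-202 went from 40.4 ± 2.00% of the gene's TPM in ATCC to 29.3 ± 2.32% in DSMZ and the retained-intron transcript SLC38A10-210 from 15.9 ± 0.875% to 22.0 ± 1.46%, as a description with no test. SLC38A6, a member of less settled function, was at 9.16 ± 0.201 and 7.02 ± 0.995 CPM without overlap (adjusted p = 0.0509, and 0.0485 without ATCC replicate 2 or 0.0466 without DSMZ replicate 3), and TRMT5 on the opposite strand was at 475% of its level.

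**Figure D3:**
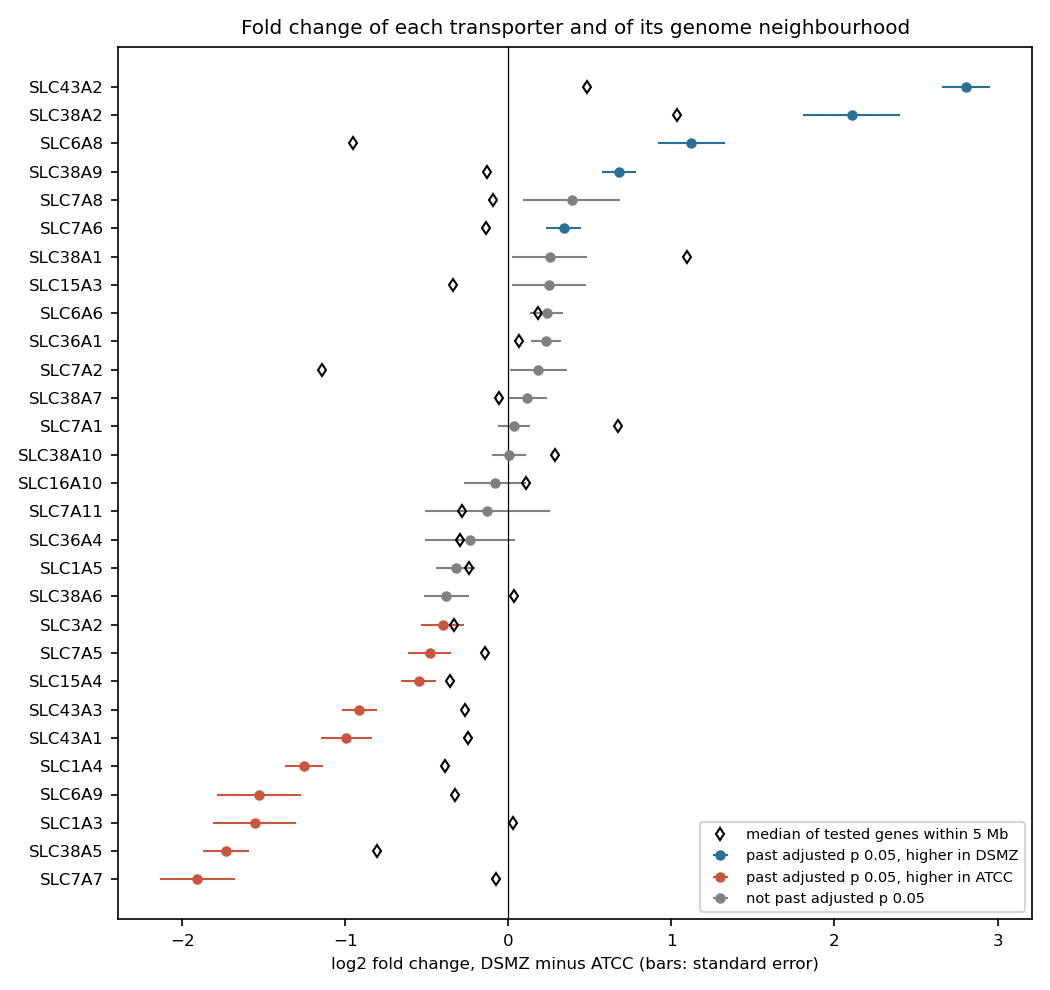
Log2 fold change, DSMZ minus ATCC, of each tested transporter with its standard error, coloured by the call, and the median log2 fold change of the other tested genes within 5 Mb (open diamonds). The diamonds lie between -1.14 and 1.09, near the transporter's own value for SLC3A2 and on the other side of 0 for SLC6A8.

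Each member was also set against its neighbourhood on the chromosome. Of the 15 called members, 11 had the same sign as the median of the other tested genes within 5 Mb on each side. The other 4 had the other sign. The matching share over all called genes was not computed, so these counts only describe the members. Around SLC38A2 that median was 1.03 (73 genes) and around SLC38A1 it was 1.09 (70 genes), while around SLC6A8 it was -0.95 (74 genes) and around SLC38A5 it was -0.81 (68 genes). After the median was subtracted, SLC38A2 stood at 1.07, SLC6A8 at 2.08, SLC38A5 at -0.92, SLC43A2 at 2.32 and SLC7A7 at -1.83. SLC3A2 stood at -0.07, close to its 218 neighbours. SLC7A1 stood at -0.64 and SLC7A2 at 1.33 relative to their neighbourhoods, although neither passed the test itself. No called member changed sign. The part of the neighbourhood in these fold changes was not tested.

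ATCC replicate 2 bears on members of low GC content. Over all tested genes, its log2 deviation from the mean of ATCC replicates 1 and 3 went from a median of -0.93 in the tenth of genes with the lowest GC content to 0.35 in the tenth with the highest. Of the 9 members below the median GC content of all tested genes, 8 were lower in ATCC replicate 2, with a median deviation of -0.66. Of the 20 members above it, 1 was lower, with a median of 0.30. SLC7A11 (35.8% GC) deviated by -1.44 and SLC38A2 (38.5% GC) by -1.17.

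Without that library, 7 members were called higher in DSMZ and 13 in ATCC, and with a GC offset in the test of all 6 libraries the counts were also 7 and 13. The 5 members added in both cases were SLC1A5, SLC6A6, SLC36A1, SLC36A4 and SLC38A6, and all 15 called members stayed called. Over all genes, the number called went from 7260 to 9510 without the library and to 9304 with the offset.

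**Figure D4:**
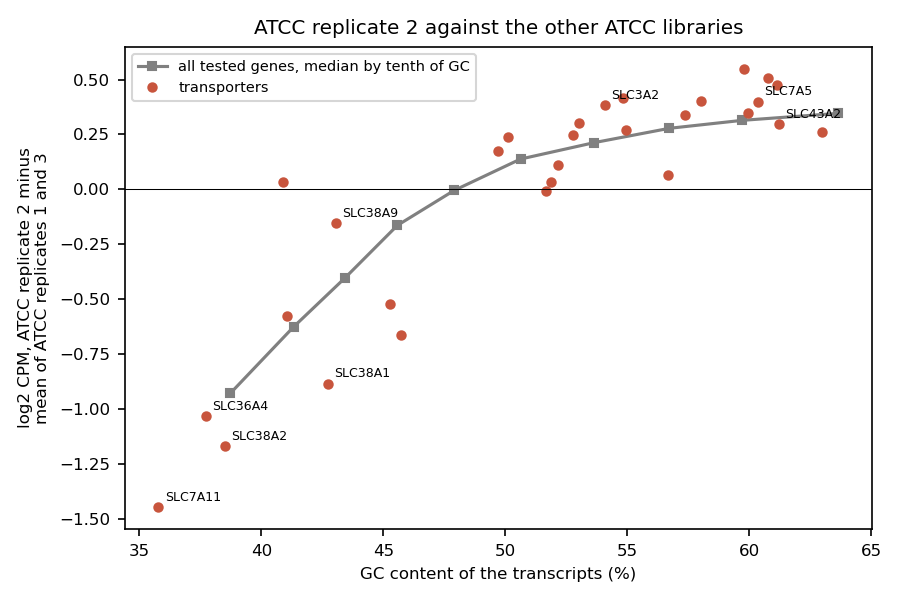
Log2 CPM of ATCC replicate 2 minus the mean of ATCC replicates 1 and 3 against the GC content of the transcripts in percent, for each tested transporter (points) and as the median of all tested genes in 10 groups by GC content (squares and line). Low-GC members such as SLC7A11 and SLC38A2 lie low along with the line, and most members of high GC content lie above 0.

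The other genes of amino acid supply were read from lists of related pathways. Over all tested genes 49.8% were called, 24.1% as higher in DSMZ and 25.7% as higher in ATCC. Among 12 other tested plasma membrane transporters, DSMZ was the higher source in 2 called genes and ATCC in 4, or 50% called in all. SLC1A1, the glutamate carrier EAAT3, fell by 1.85 on the log2 scale from ATCC to DSMZ (adjusted p = 9.16e-05), and SLC7A10, a carrier of small neutral amino acids, was higher in DSMZ by 2.30 (adjusted p = 5.19e-05). Of 12 mitochondrial carriers, 4 were called higher in DSMZ and 1, the glutamate carrier SLC25A22, higher in ATCC, or 41.7% in all.

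The GCN2 and ATF4 arm is the response to amino acid shortage. Of its 27 genes, 13 were called higher in ATCC and 3 higher in DSMZ, or 59.3% against 49.8% of all tested genes. ATF4 itself did not pass, at 282, 367 and 287 CPM in ATCC and 314, 367 and 346 CPM in DSMZ (log2 fold change 0.13, adjusted p = 0.409). ASNS, the asparagine synthetase, was at -1.14 (adjusted p = 0.000531), and CHAC1, which breaks down glutathione, was at -1.48 (adjusted p = 0.00325). The 3 genes higher in DSMZ were STC2, a secreted glycoprotein, at 2.50 (adjusted p = 0.000223), DDIT4, an inhibitor of mTORC1, at 1.77 (adjusted p = 0.000155) and ALDH18A1, an enzyme of proline synthesis, at 0.53 (adjusted p = 0.00804). The median log2 fold change of this list was -0.25, against 0.01 over all genes.

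The aminoacyl-tRNA synthetases of the cytosol, which charge tRNAs with amino acids, had 10 of 20 called higher in ATCC and 2 called higher in DSMZ. That is 60% called, against 49.8% of all tested genes. AARS was at -0.82, VARS at -0.72 and QARS, the glutaminyl-tRNA synthetase, at 0.77. Glutamine and glutamate metabolism had 21 tested genes, 10 of them called higher in ATCC and 4 higher in DSMZ, or 66.7% in all. GLUD1, the glutamate dehydrogenase, was at 1.10 (adjusted p = 7.41e-05), and its near-identical retrocopy GLUD2 at -1.93, so that reads may be split between these copies. PYCR1, an enzyme of proline synthesis, was at -0.98.

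Of 20 genes of cystine use and glutathione synthesis, among them regulators such as NFE2L2 and BACH1, ATCC was the higher source in 8 called genes and DSMZ in 4. That is 60% called, against 49.8% of all tested genes. CBS, the first enzyme from homocysteine towards cysteine, was at -1.44 (adjusted p = 0.000209), GGT1, which cleaves extracellular glutathione, at -1.41 and the repressor BACH1 at 1.21. Of 39 genes of lysosomal amino acid export and mTORC1 sensing, 7 were called higher in ATCC and 6 higher in DSMZ, or 33.3% in all. SESN3, a sestrin, was at -2.55 and the GTPase subunits RRAGB and RRAGD at -0.86 and 0.62. Among 18 arginine and polyamine genes, 5 were called higher in ATCC and 2 higher in DSMZ, or 38.9%. The same counts held among 19 genes of branched chain amino acids and tryptophan, or 36.8%.

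Of 15 factors that act on transporter transcription or surface trafficking, 4 were called in each direction, or 53.3% against 49.8% of all tested genes. EPAS1, also known as HIF-2 alpha, was at -2.24 (adjusted p = 2.96e-05), and NEDD4L, a ubiquitin ligase that removes carriers from the surface, was at 0.73 (adjusted p = 0.000679). NFE2L2, a regulator of SLC7A11, was at 0.72 (adjusted p = 0.045), and MYC did not pass at -0.06. These lists share some genes, and their counts describe the lists, with no test of a list as a whole.

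**Figure D5:**
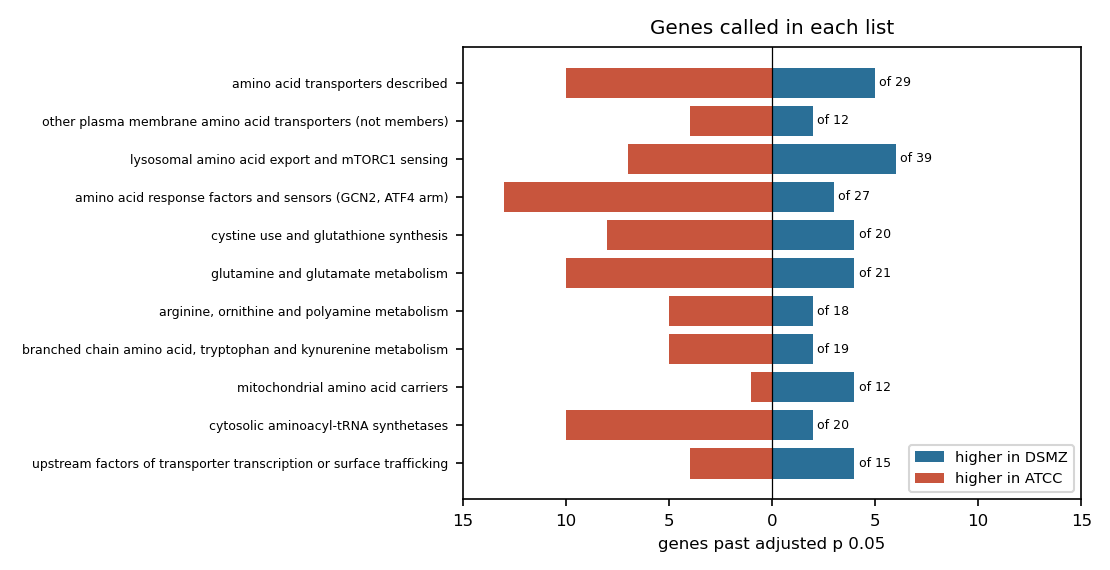
Number of genes past an adjusted p of 0.05 in each list, to the right for genes higher in DSMZ and to the left for genes higher in ATCC, with the number of genes tested beside each bar. The bar to the left is the longer for the 29 transporters (10 against 5) and for the ATF4 arm (13 against 3). The bar to the right is the longer for the mitochondrial carriers (4 against 1). Over all tested genes, 24.1% were called higher in DSMZ and 25.7% higher in ATCC.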

How the data were processed

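Gene expression was measured by poly(A) RNA sequencing in 6 THP-1 cultures, 3 per source. Per the submitters' processing notes, the authors used bcl2fastq 2.20, Trimmomatic 0.35 and kallisto 0.43.0 with the build GRCh38; the annotation release and strand setting are not given in the sources used here. Per the file headers, the deposited files give estimated counts and TPM per transcript. The deposited estimated counts are not normalized. The deposited TPM values have equal totals across libraries.

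Of 179973 transcripts, 163714 (91.0%) were matched to GENCODE 29 genes by ID and 14229 by symbol (2.42 to 2.85% of counts), and 2030 (0.181 to 0.199% of counts) had no gene and were left out. Estimated counts were summed per gene, rounded and tested in R 4.3.3 with edgeR 4.0.16 (the quasi-likelihood F test after filterByExpr and TMM), fitting the source alone, at a biological coefficient of variation of 15.87%. Each SE was computed as the size of the log2 fold change over the root of its F statistic. Sums were compared by an exact permutation over 20 assignments. For a gene with no counts in a source, the upper limit (3 counts over the group) is 0.0363 CPM for ATCC and 0.0344 CPM for DSMZ, and covers counting error only. No pair of libraries looked like 1 library deposited again (smallest chi-square over its degrees of freedom 4.48).

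The test was tried on simulated counts with the library sizes and mean levels of this comparison, in which 200 of 14569 genes were changed. A 4-fold change was recovered in 65 of 66 genes, a 2-fold one in 54 of 67 and a 1.5-fold one in 22 of 67. There were 7 false calls. In the data 7260 genes were called, and the GC deviation of ATCC replicate 2 was not simulated. These rates therefore need not hold for the data.

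The members and lists were chosen with earlier results of these data known. By rule, values of every library are given for members past the threshold with at least a 2-fold difference and 1 CPM, and for SLC3A2, SLC7A5, SLC7A11, SLC1A5, SLC38A2 and SLC7A1. From each list up to 3 genes per direction with the largest change were eligible, and 1 of them is not reported here. ATF4, MYC and further members, named outside the rule, were chosen after their values were seen. Alternatives were other normalizations, DESeq2 1.42.0, limma 3.58.1 on TPM, other filters, a GC offset, a length offset, primary assembly transcripts, a replicate block and leaving out each library. Leaving out transcripts of non-coding biotypes was added after seeing the data. Promoter sequences are from RefSeq (GRCh38.p14), and gene coordinates from GENCODE 29. Figures were drawn with matplotlib 3.10.9.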

Additional observations from a re-analysis of the deposited data

How the results depend on the processing

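Across 18 other settings of the gene test, 11 of the 15 called transporters stayed called in all and no called transporter changed sign; SLC7A6 lost its call in 10 settings, SLC3A2 in 5, SLC1A3 in 3 and SLC7A5 in 2. The number of genes called ranged from 5506 (without DSMZ replicate 2) to 9510 (without ATCC replicate 2), that of members higher in DSMZ from 4 to 7 and of members higher in ATCC from 8 to 13. Upper quartile normalization moved the median of all genes to -0.07, with 42.4% of calls higher in DSMZ against 48.4%.

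Signs changed only in 7 transporters that were not called. SLC38A10 (0.004) went to -0.000764 with DESeq2 size factors, -0.0816 with upper quartile, -0.00263 with DESeq2, -0.00317 without a filter, -0.00913 with at least 1 CPM, -0.0121 on primary transcripts and -0.0892 to 0.105 without 1 library. SLC7A1 went to -0.0512 with upper quartile. SLC7A8 went to -0.138 and -0.227 with limma on log2(TPM + 0.5) and log2(TPM + 0.1) and to -0.215 with the length offset. SLC38A7 went to -0.00257 and -0.00594 with the same limma fits. With 1 library left out, values ranged from -0.0534 to 0.132 for SLC7A1, -0.451 to 0.0813 for SLC7A11, -0.493 to 0.0095 for SLC36A4 and -0.259 to 0.0447 for SLC16A10. The causes were not tested.

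The light chain ratio difference ranged from -0.0183 to 0.0469 without 1 library. It was 0.136 without non-coding biotypes (exact permutation p = 0.3) and 0.117 with CPM in place of TPM (exact permutation p = 0.6). The difference in the members' summed TPM ranged from 38.9 to 85.4 without 1 library and was -33.9 without non-coding biotypes, 50.2 on primary transcripts (exact permutation p = 0.3) and 424 in CPM. Replicate numbers are in the labels of both sources, and same-numbered libraries deviated together weakly at most (correlations 0.00984, 0.067 and 0.147). Libraries of different numbers gave -0.100 to 0.0221. For each ATCC library the same-numbered DSMZ library had the highest value. The labels do not state a pairing, and the main test did not treat these libraries as pairs. With a replicate block, 7012 genes and 4 and 10 members were called, and 9183 genes and 7 and 13 members with the GC offset as well. In the sums the exact sign-flip p was 0.75 for the ratio difference of 0.0193. For the TPM difference of 60.8 the exact sign-flip p was 0.25, the smallest that this test can give here.

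Depth limits SLC1A2, SLC6A12, SLC7A3, SLC7A8 and SLC6A9, whose values rest on few counts.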
